A study of Mus musculus with 14 samples.

Results

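The calpain genes of the neonatal mouse brain are described here, together with Cast, which encodes the calpain inhibitor calpastatin. They were chosen by symbol, and 9 of the 17927 genes of the deposited count table matched: Capn15, Capn1, Capn2, Capn5, Capn6, Capn7, Capn10, Capns1 and Cast. RNA-SEQ was done on whole brains taken at postnatal day 2 (P2), 7 from WT mice and 7 from Capn15 KO mice. The mice were untreated and came from 6 litters, labelled A to F in the column names of the counts, and no other allele or treatment is named for either group. The study's methods name 2 Capn15 alleles on a C57BL/6J background, a lacZ-Neo allele and a floxed allele, and the sources used here do not say which of them the sequenced KO brains carried. Same-numbered WT and KO brains shared a litter. The KO group held 4 females and 3 males and the WT group 2 females and 5 males, as the column names give them.

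Calpains are intracellular cysteine proteases that cut their substrates at a few places rather than degrade them. The classical calpains are activated by calcium and consist of a catalytic subunit, Capn1 or Capn2, bound to the small subunit Capns1, and calpastatin inhibits these dimers. The other calpains among the genes chosen here do without the small subunit. Capn15 belongs to the SOL (small optic lobe) branch, named after the fly gene. The comparison asked what the level of each of these mRNAs was in WT and Capn15 KO brains, and how the other 8 related to the loss of Capn15.

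The catalytic members share a short stretch around the active-site cysteine, shown here because it separates the proteases of the family from Capn6, which lacks this cysteine. The coding sequences were read from GRCm38 with the GENCODE M21 annotation, from the longest coding transcript of each gene, and the capitals mark the codon that aligned with the active-site cysteine codon of Capn2.
Capn1: gcactgggggacTGTtggctcctggctgcc
Capn2: gccctgggggacTGCtggctgctggctgcc
Capn5: caggtgggcaacTGCtggtttgtggctgcc
Capn6: agattggggaacAAGgcaatgatctctgca
Capn7: atagtatcagatTGTtcctttgtggcatcg
Capn10: ctgctgggagatTGCtggttcctgtgtgcc
Capn15: ctgctggggaacTGCtggttcctgagtgcg
The capitals spell a cysteine codon, TGC or TGT, in 6 of these sequences and the lysine codon AAG in Capn6. Counted from 1 at the start codon, the marked codon is number 628 in Capn15, against 115 in Capn1, 105 in Capn2, 81 in Capn5 and 81 in Capn6. In Capn15 it lies in coding exon sequence on the minus strand, at chr17:25963249-25963251 in exon 4. The Capn6 codon lies at chrX:143810899-143810901 in exon 3, and the Capn2 codon at chr1:182492863-182492865 in exon 3. Capns1 and Cast encode no protease domain of this kind and have no such codon.

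Library totals were 39937477 to 57422382 counts in WT (median 43181055) and 37620954 to 70910163 in KO (median 50059045). The labels give neurons as the cell type, but the tissue was whole brain. Markers of all 10 cell type lists were detected with no listed marker of the table at 0, and the 8 neuronal markers summed to 5228 to 5482 CPM (counts scaled to 1e+06 per library, with TMM factors) in WT and 5253 to 5536 in KO. Only the sum of the 10 choroid plexus markers was lower in the KO brain in 7 of 7 litter-matched pairs, at 766 to 1006 CPM in WT and 630 to 875 in KO, and the part of this in the values of the calpain genes was not tested. Of these 10 markers, 7 were lower and 1 higher in KO at an unadjusted p under 0.05, where 5.14% of all genes were, and their median log2 fold change was -0.21, against 0.0015 over all genes. With edgeR's quasi-likelihood test at a false discovery rate (FDR) under 0.05, 0 of them passed over the 14 libraries, where 0.00558% of all genes did. Without the replicate 7 pair of litter F 1 passed (0.039% of all genes), and 1 passed by the likelihood ratio test (0.19% of all genes). The labels give each library a brain of its own. In whole brain fewer cells of a type and less RNA per cell cannot be told apart.

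Capn15, the targeted gene, was at about the same level in 6 of the 7 WT brains, and at 51.0% of that level in KO replicates 1 to 6. In WT it ranged from 18.7 CPM through a median of 26.2 to 27.3, and in KO from 12.2 through 13.9 to 20.2. The ranges overlapped, as did those of all but 0.00558% of all genes, and for Capn15 they did so through the litter F pair. The library labelled WT replicate 7 was the lowest of its group at 18.7 CPM, and the library labelled KO replicate 7 the highest of its group at 20.2 CPM. Both levels lie between those of the other KO and the other WT brains, and their order within the pair is the reverse of the labels. In replicates 1 to 6 the groups stood apart, at 26.5 ± 0.928 CPM in WT and 13.5 ± 1.03 in KO (SD, n = 6 each). Such a separation of replicates 1 to 6 was seen for 0.106% of all genes. Replicate 7 stands out by its Capn15 values, so that this separation and the 51.0% follow in part from leaving that pair out. KO replicates 1 to 6 still gave 522 to 1031 Capn15 counts in each library. The table counts reads per gene and does not say which exons they came from.

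Over all 14 libraries Capn15 averaged 25.4 ± 3.07 CPM in WT and 14.5 ± 2.67 in KO (SD, n = 7 each) and was lower in the KO brain of 6 of 7 pairs. The difference of mean log2 CPM was -0.82, with an exact two-sided permutation p of 0.00117 and an exact sign-flip p of 0.0313 over the pairs. edgeR's quasi-likelihood fit, which held terms for litter and sex, gave a log2 fold change of -0.81 (SE 0.118, 95% interval -1.06 to -0.55), or -52.0 to -31.8% in linear terms. Its FDR over all genes was 0.0747, so that 0 of the 9 genes passed 0.05 in a comparison where 0.00558% of all genes did, the 1 gene being Ptgds, named here after its value was seen. When replicate number replaced litter as the block, the FDR of Capn15 was 0.123 and 0 genes passed in edgeR, with 811 at an unadjusted p under 0.05. Without the litter F pair the log2 fold change of Capn15 was -0.98 (SE 0.0571, edgeR FDR 1.58e-06), and it was the 1 gene of the 9 that passed, against 0.039% of all genes. The pair stands out by its Capn15 values, so that the smaller SE and FDR follow in part from the choice of this pair. By the likelihood ratio test (FDR 1.80e-07, 0.19% of all genes called) and by DESeq2 (FDR 0.00535, 0.139%) Capn15 passed with the litter F pair included. Litter F holds no other brain, so with the litter term leaving out either library alone amounts to leaving out the pair. Without the library labelled KO replicate 7 the log2 fold change was -0.98 (edgeR FDR 1.55e-06), and without that labelled WT replicate 7 it was -0.98 (edgeR FDR 2.21e-06).

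**Figure D1:**
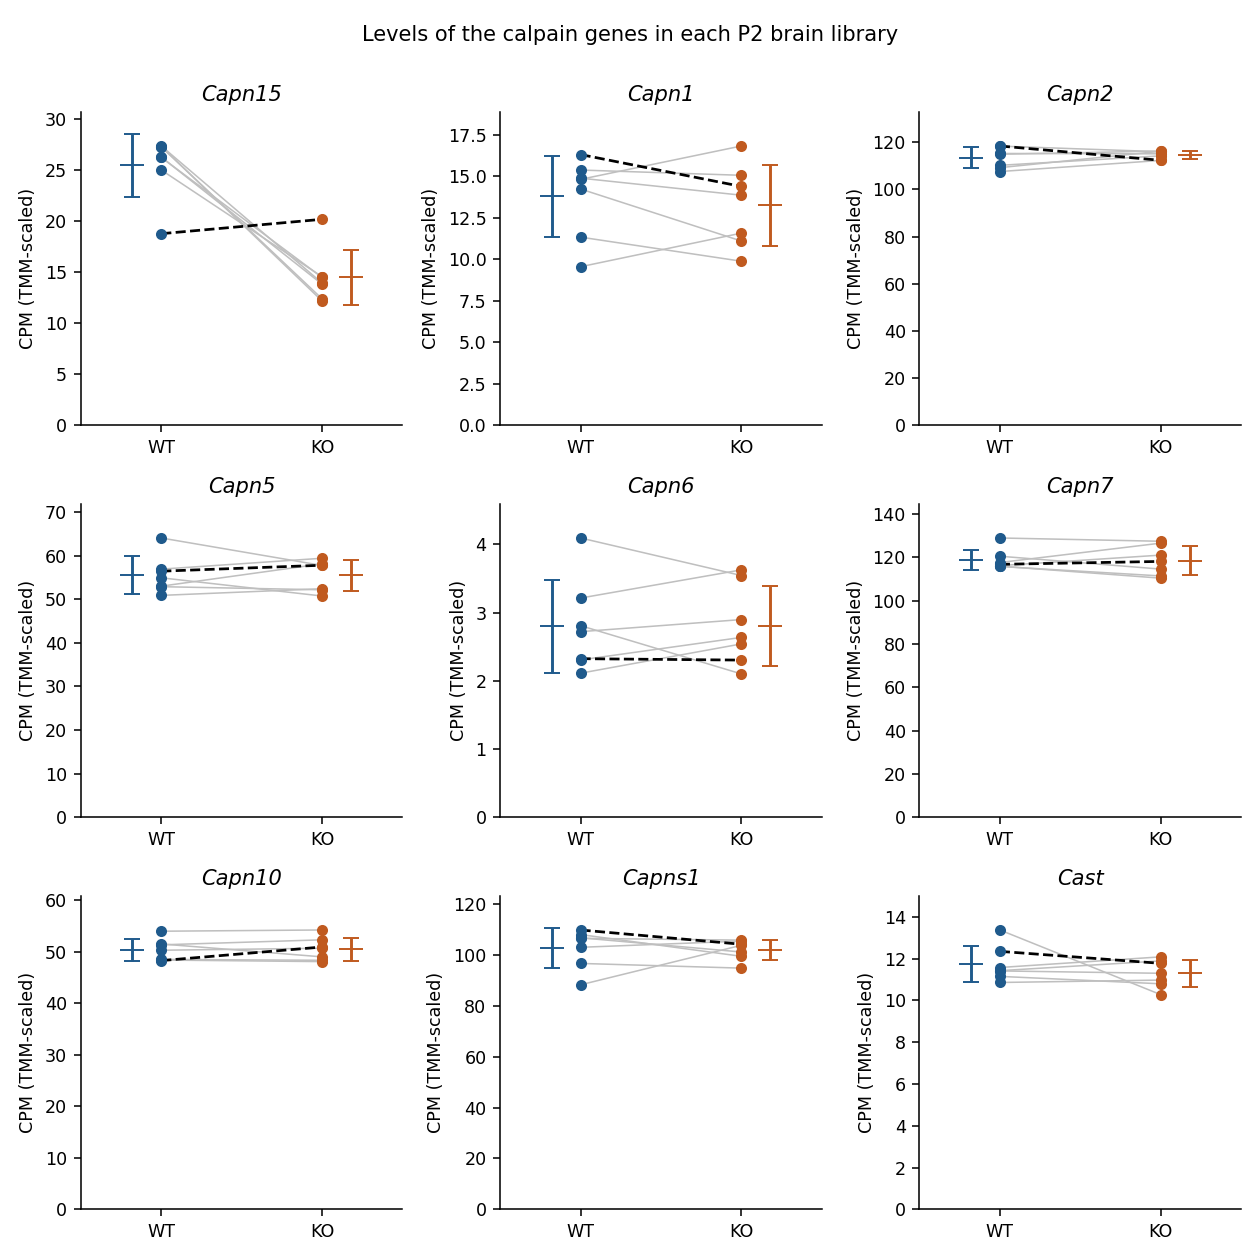
CPM scaled with TMM factors (y axis, each panel from 0) for the 9 genes in each of the 7 WT and 7 Capn15 KO brains, 1 point per library. Of these 9, only Capn15 shows separate levels for replicates 1 to 6, with the replicate 7 pair at 18.7 and 20.2 CPM between them. The WT and KO ranges of the other 8 genes overlap, as do those of all but 0.00558% of all genes.

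None of the other 8 genes passed the test between WT and KO over the 14 libraries (edgeR FDR 0.999964 for each), where 0.00558% of all genes did. They did not pass in any of the 26 alternatives of that fit either, which each called between 0 and 34 genes. The catalytic subunit of the classical m-calpain, Capn2, was at 108, 115 and 118 CPM (lowest, median, highest) in WT and at 112, 115 and 116 in KO. Its groups averaged 113 ± 4.41 and 115 ± 1.73 CPM (SD, n = 7 each) with an exact two-sided permutation p of 0.487. The fitted log2 difference of Capn2 was 0.014 (SE 0.028), with a 95% interval of -3.11 to 5.26% in linear terms. Capn2 thus had the narrowest spread of the 9 genes, with a coefficient of variation of 2.88% over the 14 brains.

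Capn1, the catalytic subunit of the classical mu-calpain, was at 9.56, 14.8 and 16.3 CPM (lowest, median, highest) in WT and at 9.89, 13.9 and 16.8 in KO. These ranges coincided almost entirely, and the means of 13.8 ± 2.43 and 13.2 ± 2.47 CPM (SD, n = 7 each) gave an exact permutation p of 0.702. The 95% interval of the fitted change of Capn1, -13.7 to 5.54%, was wider than that of Capn2. The small subunit that both catalytic subunits bind, Capns1, was at 88.3, 106.5 and 110 CPM in WT and at 94.8, 104 and 106 in KO. Its means of 103 ± 7.69 and 102 ± 3.94 CPM (SD, n = 7 each) differed with an exact permutation p of 0.907, and the 95% interval of the fitted change was -6.36 to 4.84%.

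Calpastatin inhibits the Capn1 and Capn2 dimers. Its mRNA, Cast, was at 10.9, 11.4 and 13.4 CPM in WT and at 10.3, 11.3 and 12.1 in KO. The overlap was nearly complete, with the KO brain lower in 4 of 7 pairs and means of 11.7 ± 0.856 and 11.3 ± 0.658 CPM (SD, n = 7 each, exact permutation p = 0.319). The fitted log2 fold change of Cast was -0.081 (SE 0.051), and its 95% interval of -12.4 to 2.03% includes no change. It was -0.0047 without WT replicate 4 or KO replicate 4 and -0.15 without WT replicate 5 or KO replicate 5. Cast did not pass in either case, where 0 of all genes did.

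Capn5, a calpain without the calmodulin-like domain of the classical enzymes, had means of 55.6 ± 4.29 and 55.5 ± 3.55 CPM (SD, n = 7 each, exact permutation p = 0.977). Capn7, whose yeast and mould relatives act in pH sensing, was at 116, 117 and 129 CPM in WT and at 110, 118 and 127 in KO, with a 95% interval of -4.17 to 4.44% for the fitted change. Capn10, a gene studied for a link to type 2 diabetes, averaged 50.3 ± 2.12 and 50.5 ± 2.24 CPM (SD, n = 7 each), with a 95% interval of -3.84 to 5.39%. In these 3 non-classical calpains the groups overlapped, as in all but 0.00558% of all genes, and the intervals included no change.

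Capn6, which lacks the catalytic cysteine and is known as a microtubule-binding protein, was the member with the lowest counts, between 88 and 187 per library. It was at 2.11, 2.72 and 4.09 CPM in WT and at 2.10, 2.64 and 3.63 in KO. The means of 2.80 ± 0.682 and 2.81 ± 0.588 CPM (SD, n = 7 each) gave an exact permutation p of 0.948. At this depth a change of Capn6 between -10.4 and 19.3% is inside the 95% interval, the widest of the 8 genes other than Capn15.

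**Figure D2:**
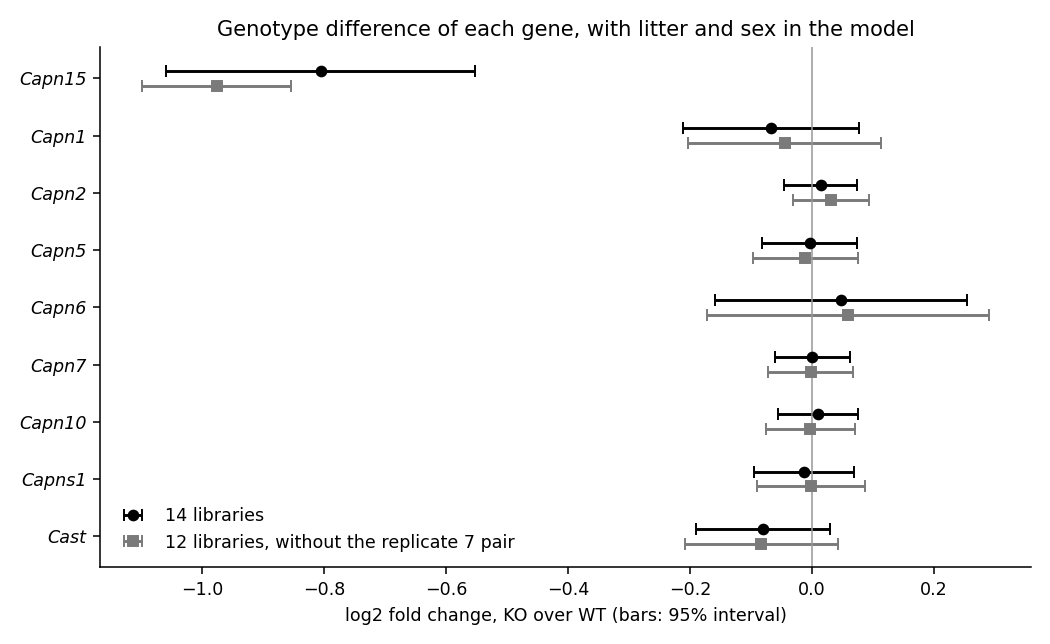
Log2 fold change of KO over WT (x axis) for each of the 9 genes (y axis), from the edgeR fit with litter and sex, with bars for the 95% interval, over 14 libraries and without the replicate 7 pair. Capn15 lies at -0.81 and -0.98, and the intervals of the other 8 genes include 0.

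Levels of different genes were compared per length, as CPM per kilobase of annotated exons. In WT the order was Capns1 at 41.5 ± 3.10, Capn7 at 24.3 ± 0.971, Capn2 at 17.9 ± 0.695, Capn10 at 11.6 ± 0.488 and Capn5 at 10.1 ± 0.783 (SD, n = 7). Capn15 followed at 4.44 ± 0.535, then Capn1 at 4.13 ± 0.726, Cast at 1.02 ± 0.0746 and Capn6 at 0.359 ± 0.0875. Thus the mRNA of the shared small subunit stood highest, Capn2 mRNA exceeded Capn1 mRNA, and the inhibitor was near the bottom. Of the 8 pairs of neighbours in this order, 6 had ranges that did not overlap. The exceptions were Capn10 and Capn5, where Capn10 was higher in 6 of 7 WT brains, and Capn15 and Capn1, where Capn15 was higher in 4 of 7. In KO, Capn15 was at 2.53 ± 0.466 CPM per kilobase, below Capn1 at 3.96 ± 0.738, so that these genes exchanged ranks 6 and 7. The length used matters for Capn2: with the longest transcript in place of all exons, WT Capn2 was at 35.2 CPM per kilobase and stood above Capn7 at 25.5.

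**Figure D3:**
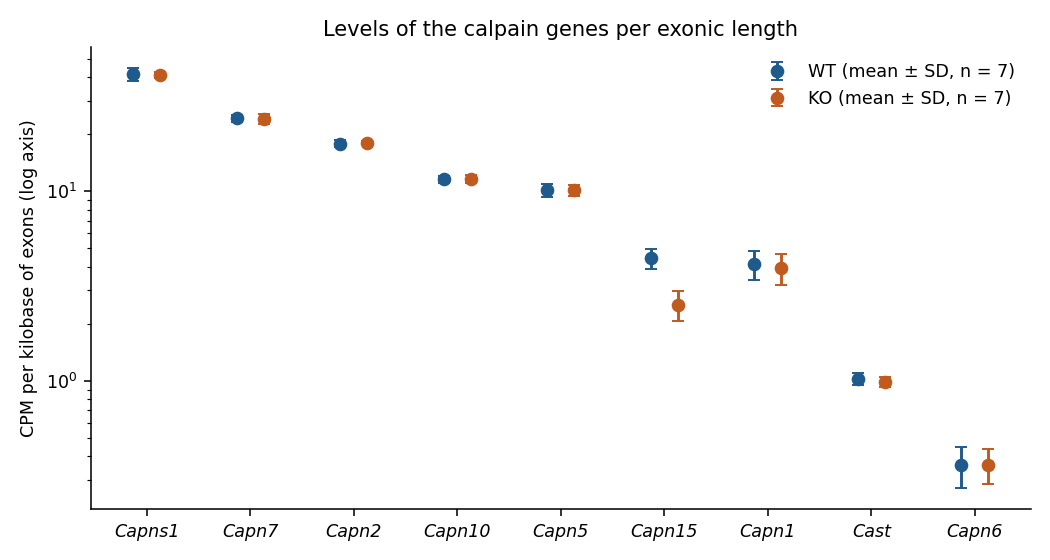
CPM per kilobase of annotated exons (y axis, log axis) for the 9 genes, ordered by the WT mean. Each point is the mean of 7 WT or 7 Capn15 KO brains, with a bar for the SD. The WT means run from 41.5 for Capns1 to 0.359 for Capn6, and the mean of Capn15 is 4.44 in WT and 2.53 in KO.

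Capn1, Capn5 and Capn6 differed between litters. In the quasi-likelihood test of all litter terms together, 3 of the 9 genes passed an FDR of 0.05, with an edgeR FDR of 0.00357 for Capn1, 0.0103 for Capn6 and 0.0435 for Capn5. Of all genes, 29.6% passed, so that this share is near the background. The same 3 genes passed by the likelihood ratio test, where 37.4% of all genes did, and without the replicate 7 pair, where 27.5% did. The exact permutation of WT against KO for these 3 genes took no account of litter. Sign flips over the 7 pairs gave a p of 0.469 for Capn1, 0.969 for Capn5 and 0.891 for Capn6.

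Litter B, which holds 4 of the 14 brains, had the lowest litter mean of Capn1 and Capn5 and the highest of Capn6, although single brains overlapped with those of other litters for Capn1 and Capn5. Capn1 was at 9.56 to 11.6 CPM in litter B and at 11.1 to 16.8 CPM elsewhere. Capn6 moved the other way, at 3.21 to 4.09 CPM in litter B and at 2.10 to 2.90 CPM elsewhere. Capn5 was at 50.9 to 52.9 CPM in litter B, inside the span of the other litters (50.7 to 64.0 CPM). Thus the 4 brains of litter B, both genotypes included, had the highest Capn6 of all 14. Litter F, whose Capn15 levels lie between those of the other WT and KO brains, had 16.3 and 14.4 CPM of Capn1 and 2.32 and 2.30 CPM of Capn6.

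**Figure D4:**
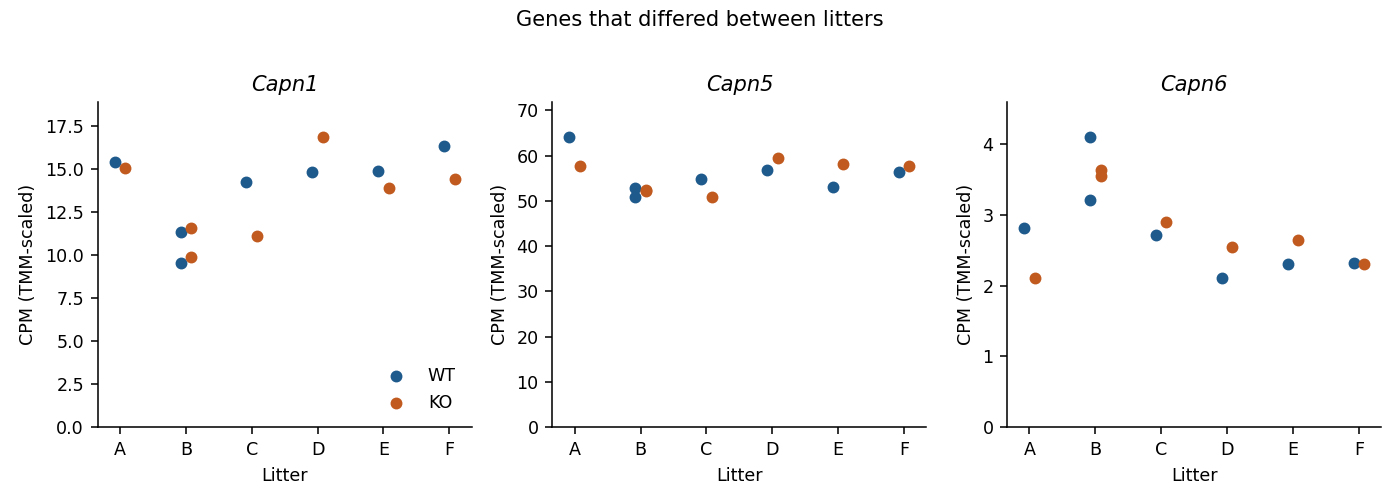
CPM scaled with TMM factors (y axis, from 0) of Capn1, Capn5 and Capn6 by litter (x axis), 1 point per library, with WT and KO marked. In litter B, Capn1 lies at 9.56 to 11.6 CPM and Capn6 at 3.21 to 4.09 CPM, where the WT and KO brains overlap.

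Sex was tested in the same model, as female minus male. None of the 9 genes passed the edgeR FDR, against 0.0669% of all genes, and the lowest FDR among them was 0.927 for Cast, with a log2 difference of 0.098. For Capn6, on chromosome X, the log2 difference was -0.11 (edgeR FDR 0.948). Because WT and KO brains of litters A, B and E differed in sex in one direction and those of C and D in the other, a genotype difference that itself depends on sex could be estimated only through litter F. Capn15 passed in that term, with a log2 value of -2.16 (SE 0.286, edgeR FDR 0.0475), in a test where 0.00558% of all genes passed. This value rests on the pair whose Capn15 levels lie between those of the other WT and KO brains.

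The level of Capn15 varied within each genotype, so the slope of the other genes on log2 Capn15 was fitted with the genotype means removed. No gene of the 17926 others passed in edgeR's quasi-likelihood test, with 1656 at an unadjusted p under 0.05 and 118 (0.658%) passing by the likelihood ratio test, and none of the 8 genes was among those passing. Among the 8, the slopes lay between -0.11 for Capns1 and 0.090 for Cast per log2 unit of Capn15, with FDR between 0.736 and 0.998. The replicate 7 pair holds the lowest WT and the highest KO level. Without it, the slopes ran from -0.40 for Capns1 to 0.65 for Cast, with Capn5 at 0.30 and Capn6 at 0.41. None of the 8 passed there (edgeR FDR 0.999751 for each), where 0 of all 17926 genes did. The 95% intervals were wider there, for Cast -0.078 to 1.37 against -0.17 to 0.35 over all 14 brains.

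After the genotype mean was subtracted, the levels of some of these genes still moved together over the 14 brains. Capn1 and Capns1 had a Pearson's r of 0.86, Capn1 and Capn5 of 0.78, Capn1 and Capn6 of -0.86, and Capn6 and Capns1 of -0.76. These 14 points share litters and depth, so the values describe the libraries. Among 15226 other genes, the 2 most like each member by the same measure were Pdia3 (0.978) and Hyou1 (0.976) for Capn1, both chaperones of the endoplasmic reticulum, and Crlf3 (0.918) and Myl6b (0.891) for Capn2. For Capns1 they were Slc25a4 (0.966) and Rangap1 (0.961), for Cast Cdh15 (0.852) and Ift22 (0.808), and for Capn5 Kif5a (0.941), a kinesin motor of neurons, and Sptb (0.938). Capn6 was most like Top3a (0.965) and Zfp646 (0.946), Capn7 most like Pds5a (0.907) and Ahsa2 (0.896), and Capn10 most like Rnf111 (0.842) and 3110001I22Rik (0.828). Capn15 had the weakest partner of the 9, Pip5k1c (0.799), followed by Kcnc1 (0.784). Its levels lay furthest from the genotype means in the litter F pair, so that these values rest largely on that pair.

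Capn3, the muscle calpain, Capn11 and Capn12 are the 3 of 8 other listed calpain genes that the table holds, and the other 5 were not analysed here. Capn3 was at 0.469 ± 0.221 CPM in WT and 0.551 ± 0.113 in KO, and Capn12 at 0.308 ± 0.163 and 0.314 ± 0.146 (SD, n = 7 each). Capn11, known from the testis, spread from 0.122 to 4.03 CPM, a ratio of 33.0 between the highest and lowest brain. None of the 3 passed between genotypes, with an edgeR FDR of 0.999964 for each, where 0.00558% of all genes passed.

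Proteins that calpains are known to cut, such as the spectrins and neurofilaments, were counted as a list. All 37 were in the table, and in edgeR's quasi-likelihood test 0 passed, where 0.00558% of all genes did. At an unadjusted p under 0.05 in that test, 2 of the 37 were higher and 5 lower, where 5.14% of all genes were. Their median log2 fold change was -0.0015, against 0.0015 over all genes. Nefh, the heavy neurofilament subunit, was at 30.8 ± 6.42 CPM in WT and 26.8 ± 5.19 in KO (SD, n = 7 each). It was lower in the KO brain of 7 of 7 pairs, with an edgeR FDR of 0.0747, and of 0.161 without the replicate 7 pair. It was the 1 of the 37 to pass by the likelihood ratio test, where 0.19% of all genes did. Nefl, the light subunit, was lower in 5 of 7 pairs (log2 fold change -0.11, edgeR FDR 0.418). Slc8a3, a sodium-calcium exchanger, was lower in 7 of 7 (-0.064, edgeR FDR 0.930). Ank3, the ankyrin of axon initial segments, had a log2 fold change of 0.14 (edgeR FDR 0.765).

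Other intracellular proteases and their inhibitors, such as cathepsins and caspases, gave 0 of 30 genes passing in edgeR's quasi-likelihood and likelihood ratio tests, where 0.00558% and 0.19% of all genes did. At an unadjusted p under 0.05, 1 was higher and 1 lower, where 5.14% of all genes were, with a median log2 fold change of -0.000067. The 4 with the lowest p were the cystatin Cst6 (-0.33, edgeR FDR 0.784) and the cathepsins Ctss (0.20, FDR 0.911), Ctsc (-0.11, FDR 0.978) and Ctsk (0.13, FDR 0.999964). Neither group of proteins was measured here, and mRNA levels say nothing of the amount of cleavage.

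Around the targeted gene on chromosome 17, 39 deposited genes have a span within 500 kb of that of Capn15 (chr17:25958364-25985796, minus strand). In edgeR's quasi-likelihood test 0 of the 39 passed, where 0.00558% of all genes did, and 1 was at an unadjusted p under 0.05, where 5.14% of all genes were. By the likelihood ratio test 0 of the 39 passed, where 0.19% of all genes did, and the median log2 fold change of the 39 was 0.0058. The lowest p was that of Tekt4, a gene of ciliary microtubules (log2 fold change 0.24, edgeR FDR 0.933), followed by Haghl (-0.057), Chtf18 (-0.11) and Msln (-0.23).

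**Figure D5:**
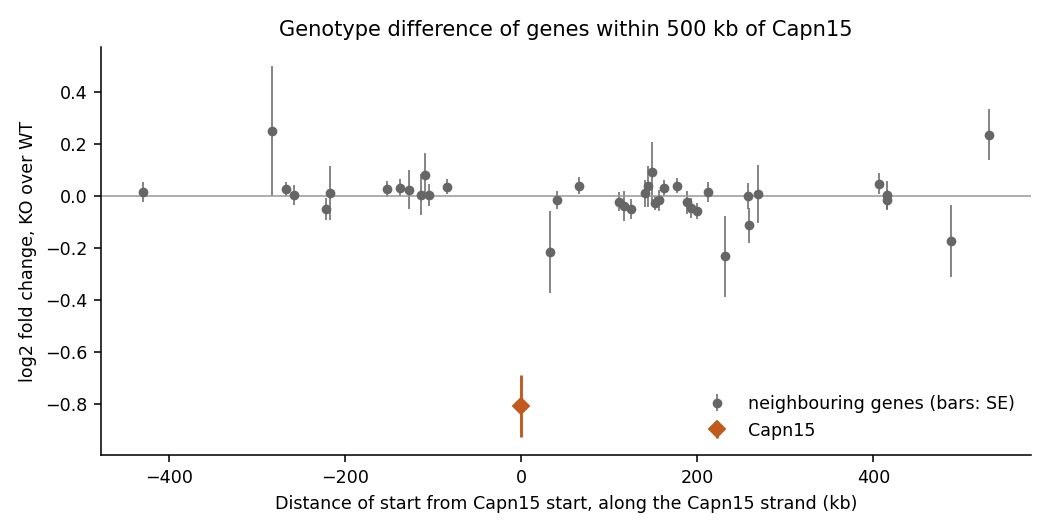
Log2 fold change of KO over WT (y axis) of Capn15 and the 39 deposited genes whose spans lie within 500 kb of it, against the distance of each gene's start from the Capn15 start along the Capn15 strand in kilobases (x axis). Capn15 stands at -0.81 and the neighbours lie between -0.23 and 0.25.

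Genes that overlap a member can add reads to it where counting ignores strand, and the strand setting is not given in the sources used here. Of the 9 genes, 8 have an overlapping gene on the opposite strand, and the exception is Capn6. The antisense gene D630044L22Rik covers 1105 exonic bases of Capn15, 19.3% of its exons, Gm37885 covers 27.1% of the exonic bases of Capn2, and 9430060I03Rik covers 14.7% of those of Capn10. Of these 3, the counts of 9430060I03Rik were analysed here, at 0.609 ± 0.0864 CPM in WT and 0.457 ± 0.145 in KO (SD, n = 7 each). Erap1, which overlaps 7.27% of the exonic bases of Cast, was at 14.9 ± 1.45 and 15.01 ± 0.829 CPM (SD, n = 7 each, edgeR FDR 0.999964). Sh3bp5, on the strand opposite Capn7 and over 2.37% of its exonic bases, was at 119 ± 11.5 and 117 ± 17.7 CPM, and Omp, within the span of Capn5 but sharing no exonic base, was at 0.523 ± 0.256 and 0.577 ± 0.288 CPM (SD, n = 7 each).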

How the data were processed

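Raw counts per gene of 14 P2 brains were deposited without normalization. The authors' methods name Trimmomatic (phred 30), STAR 2.7.8 on GRCm38 and HTSeq-count 0.11.1, whereas the submitters' processing notes name featureCounts. The annotation, strand setting and filter on genes are not given in the sources used here. A second deposited table of gene names and types was used for symbols, and its columns hold no measurements. Columns for every brain were used. Of 17927 genes, 17909 were found in GENCODE M21.

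Counts were tested with edgeR 4.0.16 (quasi-likelihood, TMM, genes with at least 1 count, litter, sex and genotype, Benjamini-Hochberg FDR under 0.05) in R 4.3.3. Single genes used exact permutation over 3432 regroupings (smallest p 0.000583) or sign flips over 7 pairs (smallest p 0.0156), two-sided. CPM is TMM-scaled, log2 CPM has a prior count of 2, and depth was 37620954 to 70910163 counts. Alternatives were the edgeR likelihood ratio test, DESeq2 1.42.0, limma 3.58.1 (voom), RLE, upper quartile factors and library totals, filterByExpr, other covariates, a replicate block and omitted libraries. On simulated counts of 17927 genes with 200 changed 2-fold, the genotype test recovered 200 with 9 false calls. In the slope test 79 of 100 genes given a slope of 1 per log2 unit of Capn15 were recovered with 9 false calls. No litter or sex effect was simulated, so these shares do not give the power in the brains themselves.

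The genes and lists were chosen with earlier results of these data known. The text names all 9 members, listed calpain genes, up to 4 genes of each list by lowest p, deposited genes overlapping a member and the antisense genes that share most exonic bases with Capn15 and Capn2, and the 2 genes most like each member at a mean of at least 1 CPM. Same-numbered brains shared a litter, and litter and sex came from the deposited column names. The mean correlation of the deviations of same-numbered brains was 0.123 (range -0.467 to 0.443) over 7 pairs, against -0.0194 for other WT and KO pairs. The other pairs include littermates of litter B, WT replicate 2 with KO replicate 3 (0.550) and WT replicate 3 with KO replicate 2 (0.229). Pairs within litter B follow the numbering alone and count separately in the pair counts and sign flips. Sequence alignment used Biopython 1.88.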

Additional observations from a re-analysis of the deposited data

Results flagged for a closer look

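In groups of 7 brains, 3 of 24 groups looked at held a library apart from the rest, where chance gives about 1.2. The library labelled WT replicate 7 was the lowest of its group in Capn15, with a gap to the next library of 0.761 of the group's range. The library labelled KO replicate 7 was the highest of its group in Capn15, with a gap of 0.647 of the range. For Capn7, WT replicate 6 was the highest at 129 CPM, with a gap of 0.627 of the range. The genotype difference of Capn15 differed between the sexes by -2.16 on the log2 scale (SE 0.286, edgeR FDR 0.0475). This estimate comes only through the litter F pair, whose Capn15 levels lie between those of the other WT and KO brains.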

How the results depend on the processing

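The number of genes called between the genotypes was 1, against 34 by the likelihood ratio test, 22 by DESeq2, 0 with library totals only, 2 without sex, 0 with the replicate block and 7 without the pair of replicate 7. Leaving out each library in turn gave 0 to 7, with 7 without KO replicate 7, 6 without WT replicate 7, 2 without KO replicate 3, 1 without WT replicate 2 and 0 without any 1 of the other 10. Capn15 passed in 8 of the 26 alternatives. It passed by the likelihood ratio test (-0.81), by DESeq2 (-0.81), with genotype alone (-0.81), without sex (-0.82), without litter (-0.80) and without the pair of replicate 7 (-0.98). It did not pass with the replicate block (-0.81, edgeR FDR 0.123), or by limma-voom (FDR 0.0613). Nor did it pass with RLE (edgeR FDR 0.0704), upper quartile factors (0.0547), library totals (0.0638) or filterByExpr (0.0748). Leaving out single libraries gave -0.98 to -0.67 and, for the difference of means, -0.90 to -0.78. Capn15 passed in these fits only without KO replicate 7 or WT replicate 7, and either omission amounts to leaving out that pair, which stands out by its Capn15 values. In the genotype fit the block changed the call of none of the 9 genes, and in sign-flip tests over the pairs it changed none either. The sex, litter and slope tests were not run with it.

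None of the values that changed sign was called. They were Capn7 with DESeq2 (-0.00058), RLE (-0.00057), upper quartile factors (-0.0056), library totals (-0.0016), genotype alone (-0.0037), without sex (-0.0049), without litter (-0.00022) and without the pair of replicate 7 (-0.0023), Capn10 without that pair (-0.0028, and -0.0069 for the difference of means) and Capns1 without it (0.0056, difference of means). Without that pair the slopes on Capn15 changed sign for Capn1 (0.054), Capn2 (0.018), Capn6 (0.41), Capn7 (-0.075) and Capn10 (-0.28), as did the sex difference of Capn15 (0.018). Leaving out single libraries gave fitted ranges of -0.19 to 0.021 for Capn1, -0.0058 to 0.019 for Capn10, -0.017 to 0.031 for Capn2, -0.034 to 0.033 for Capn5, -0.032 to 0.036 for Capn7 and -0.041 to 0.0051 for Capns1, and for Cast, with no change of sign, of -0.15 to -0.0047. Differences of means ranged from -0.14 to 0.0081 for Capn1, -0.012 to 0.022 for Capn10, -0.022 to 0.033 for Capn5, -0.053 to 0.11 for Capn6, -0.023 to 0.015 for Capn7 and -0.042 to 0.012 for Capns1. The slope test called 118 genes and the sex test 36 by the likelihood ratio test, and 2 genes changed rank with the longest transcript as length. The cause of these changes was not tested. Counts of 88 to 187 limit Capn6.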
